A study of Mus musculus with 4 samples.

Results

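The respiratory chain genes described here encode the 5 complexes of oxidative phosphorylation in the mouse, from the nuclear and from the mitochondrial genome. Members were chosen by symbol and selected on their read counts: names starting with mt-, Nduf, Uqcr or Atp5, the Cox4 to Cox8 families, Sdha to Sdhd, Cyc1 and Cycs, with 20 or more counts in at least 1 of 4 libraries. Of 112 listed genes that match these symbols, 106 passed the count minimum, out of 21959 genes in the tables and 11987 that pass the same minimum. Of the 106 members, 94 are nuclear, 1 of them with a pseudogene symbol (Cox5b-ps), and 12 mitochondrially encoded. The count minimum used these same libraries, so the presence of a member is no result. Cox6b2, with at most 32 counts, and mt-Nd3, with at most 86, lie just inside the minimum, and mt-Nd4l, with at most 18, lies just outside. Cox8b, Cox8c, Cox7b2, Ndufb11b and a second gene listed as Atp5o had 0 counts in all 4 libraries.

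RNA came from cells taken out of MC38 tumours, grafts of a mouse colon carcinoma line, 72 h after the second treatment. The 4 groups are DCs from mice given X-Ray+O-IMDQ, DCs from mice given PBS, CD3+ T cells from mice given X-Ray+O-IMDQ and CD3+ T cells from mice given PBS, with 1 library each. Both agents were given together and no group had 1 of them alone, so their shares cannot be told apart. Mouse strain, age, sex, pooling of animals and the gate used for sorting DCs are not stated in the sources here. With 1 library per group there is no replicate check: intervals cover counting error only, no p-values are given, and every difference is between 2 libraries.

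In mitochondria, complexes I and II pass electrons from NADH and succinate to ubiquinone, complex III passes them to cytochrome c, and complex IV to oxygen. Complexes I, III and IV pump protons, and ATP synthase, called complex V, uses the gradient to make ATP. Each complex other than complex II mixes subunits encoded in mitochondrial DNA with subunits imported from the cytosol. Core subunits hold the flavin, iron-sulfur clusters, haems and copper, or form the proton channel, while the accessory subunits are mostly small proteins around this core.

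Total counts were 14056428 in treated DCs, 23797357 in PBS DCs, 18463944 in treated T cells and 18649824 in PBS T cells, and 3 counts, the limit that a count of 0 allows, correspond to 0.213, 0.126, 0.162 and 0.161 CPM (counts scaled to the same library total) in that order. Of 7857 genes with at least 100 counts in PBS DCs, 942 had 0 counts in treated DCs, and in T cells 342 of 8607 did by the same measure. By the 2-fold rule given below, 30.2% of all genes measured in DCs were called higher with treatment and 41.8% lower. Of 15 conventional DC markers, 6 were higher in treated DCs, 7 lower and 2 neither, with a median log2 ratio of 0.33. They summed to 14883 CPM in treated DCs and 82723 CPM in PBS DCs, of which the MHC class II gene H2-Ab1 held 5892 and 49192 CPM. The DC marker Flt3 had 69 and 16 counts, Zbtb46 57 and 9 counts, and Batf3 0 and 479 counts in treated and PBS DCs. In treated DCs 6 of 11 macrophage markers were lower and 0 higher, and their sums were 3101 CPM in treated and 15892 CPM in PBS DCs. Of 10 T cell markers, 6 were measured in DCs, 3 higher and 3 lower, and they summed to 93.8 CPM in treated and 71.9 CPM in PBS DCs. Cd3d had 812 and 434 counts, Cd3g 1 and 576, and Cd3e 0 in both DC libraries. Epcam, an epithelial marker, had 0 counts in treated and 219 in PBS DCs. In T cells, T cell markers summed to 13776 CPM with treatment and 12827 CPM with PBS, and the largest other list was NK cell markers at 2682 and 2633 CPM. The part of these differences in the values that follow was not tested.

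Over the nuclear members, many small accessory subunits were higher in treated DCs, 19 of 30 in complex I, and the core subunits of complexes I and III were lower. The catalytic subunits Sdha and Sdhb of complex II were not called. In ATP synthase Atp5a1 (alpha) was not called, and Atp5b (beta) was called lower at -1.08. A gene was measured with at least 20 counts in either library of a cell type, and was called when the scaled counts lay at least 2-fold apart with a 95% counting interval of the log2 ratio that excludes 0. Of 93 nuclear members measured in DCs, 46 were called higher in treated DCs, where 30.2% of all 10316 measured genes were called higher. Another 26 were called lower, where 41.8% of all genes were, and 21 were neither. Their median log2 ratio was 0.91, against -0.36 over all genes. Over the 82 structural subunits, without assembly factors and paralogues of uncertain role, 44 were higher, 21 lower and 17 neither, with a median of 1.46. Together the nuclear members took 10.6% of all counts in treated DCs and 3.0% in PBS DCs. In these bulk samples, fewer cells of a type and less RNA per cell cannot be told apart.

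**Figure D1:**
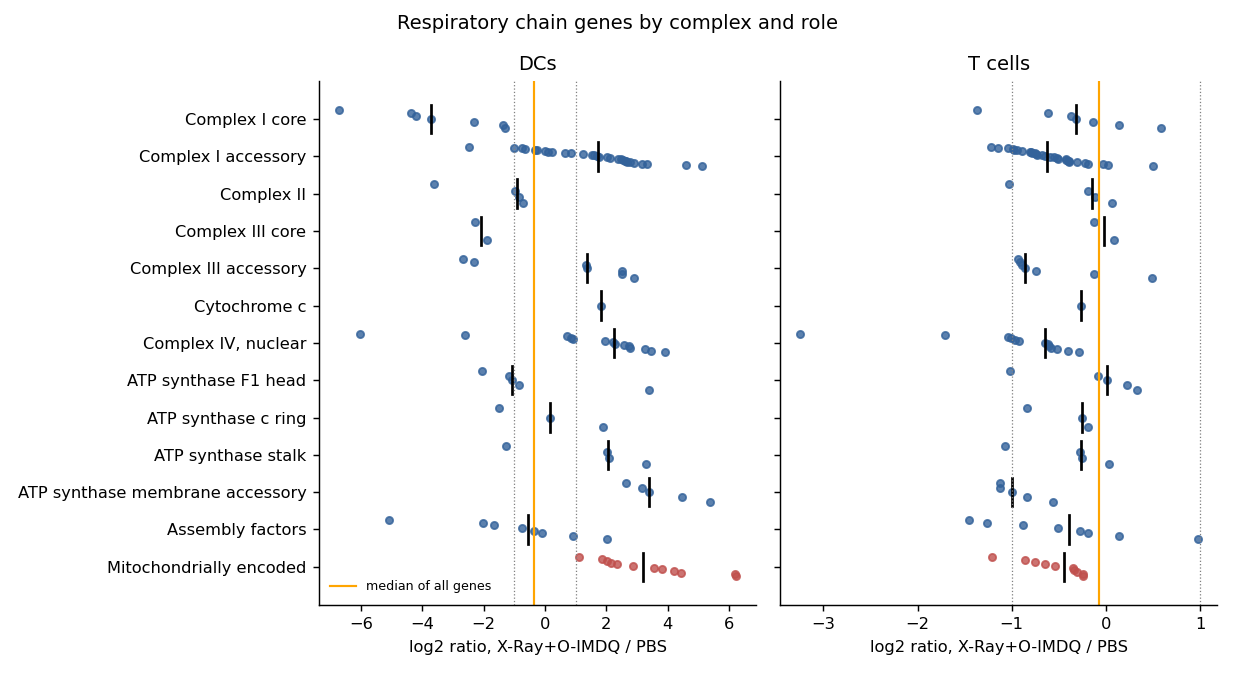
Log2 ratio of scaled counts, X-Ray+O-IMDQ over PBS, for each measured member (points) in DCs (left) and T cells (right), by complex and role, with black bars at group medians, dotted lines at 2-fold and an orange line at the median of all genes. In DCs the complex I core lies wholly below -1 with a median of -3.71. The ATP synthase membrane accessory subunits lie above 2.65, and the T cell points are mostly between -1 and 0.

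All 7 nuclear core subunits of complex I were lower in treated DCs, where 41.8% of all measured genes were. Their median log2 ratio was -3.71. Ndufs1 (chr1:63182755-63215992, minus strand, GRCm39), the large iron-sulfur subunit, had 5 counts in treated DCs and 925 in PBS DCs, a log2 ratio of -6.71 (95% interval -8.34 to -5.48). Ndufv1 (chr19:4057384-4062806, minus strand), which binds NADH and the flavin, had 71 and 2607 counts, a log2 ratio of -4.38 (-4.74 to -4.04). Its partner in the same module, Ndufv2, had 296 counts in treated and 9592 in PBS DCs, a log2 ratio of -4.20. The NADH-oxidising arm was thus at a small part of its PBS level in all 3 subunits named. Ndufs7, which carries the cluster next to the ubiquinone site, had 551 and 12697 counts, a log2 ratio of -3.71. Ndufs3 had 881 counts in treated and 7645 in PBS DCs, and Ndufs8, another iron-sulfur subunit, had 2262 and 10366, with log2 ratios of -2.30 and -1.38. In the plot of the core subunits, treated DCs are the lowest of the 4 libraries for each of the 6 genes shown.

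**Figure D2:**
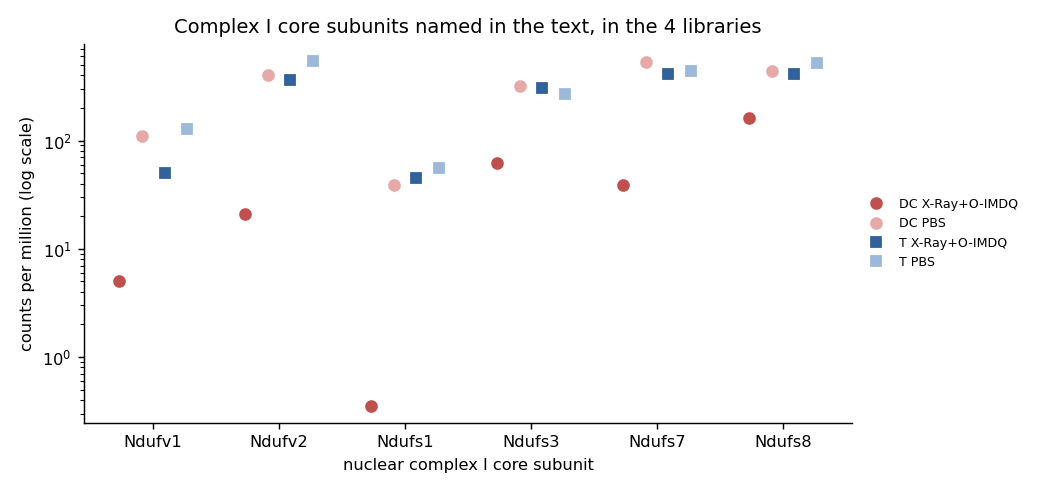
CPM (log axis) of 6 nuclear core subunits of complex I in the 4 libraries, 1 point per library. Treated DCs are lowest for every gene, with Ndufs1 at 0.356 CPM against 38.9 CPM in PBS DCs.

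Among 30 accessory subunits of complex I, 19 were higher in treated DCs, where 30.2% of all measured genes were. Another 2 were lower, where 41.8% were, and 9 were neither. The median log2 ratio of the 30 was 1.73. Ndufb1, a small membrane-arm subunit, had 76219 counts in treated DCs and 3823 in PBS DCs, a log2 ratio of 5.14 (5.09 to 5.18). Ndufa3 had 151051 and 10985 counts, a log2 ratio of 4.60, and was the member with the most counts in treated DCs. Ndufa1 and Ndufc1 had log2 ratios of 2.77 and 2.92. The 2 lower accessory subunits, Ndufa9 at -2.47 and Ndufa10 at -1.01, both belong to the larger accessory proteins. Ndufv3, a flavoprotein-module subunit, had 34774 counts in treated and 10475 in PBS DCs, a log2 ratio of 2.55, beside the low core subunits of the same module. Ndufs1 and Ndufb1, subunits of 1 enzyme, thus lay at the far ends of the nuclear ratios in DCs, with Atp5k alone above Ndufb1.

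Complex II, which is wholly nuclear, had 0 members higher and 1 lower of 4. Sdhd, a membrane anchor, had 452 counts in treated DCs and 9738 in PBS DCs, a log2 ratio of -3.61 (-3.75 to -3.47). The catalytic flavoprotein Sdha, the anchor Sdhc and the iron-sulfur subunit Sdhb lay at -0.96, -0.83 and -0.73 and were not called. Their median with Sdhd, -0.90, was 0.03 after the correction for listed length. The median of all genes was then 0.23, against -0.36 without the correction. In complex III both nuclear redox subunits were lower, Cyc1 (cytochrome c1) at -2.28 and Uqcrfs1 (the Rieske iron-sulfur protein) at -1.90. The large core proteins without a redox centre, Uqcrc2 and Uqcrc1, were lower at -2.66 and -2.31. The 5 small subunits were higher, with Uqcr10 at 45378 counts in treated and 10755 in PBS DCs, a log2 ratio of 2.90, and Uqcr11 lowest of them at 1.34. After a correction for coding length, Uqcr11 was at -0.55 and the median of complex III was -0.42, against 1.34 without it. Cycs, the mobile carrier cytochrome c, had 21230 and 10655 counts, a log2 ratio of 1.81. Over the 7 nuclear subunits with an iron-sulfur cluster in complexes I, II and III, 6 were lower, 0 higher and Sdhb was not called. The 6 are Uqcrfs1 and the complex I core subunits Ndufs1, Ndufs7, Ndufs8, Ndufv1 and Ndufv2, already given above. Of all measured genes 41.8% were lower, and of those with coding lengths of 600 to under 1200 bases, 1660 of 3150 were.

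Complex IV takes its catalytic core from mitochondrial DNA, and its nuclear subunits are accessory. Of 14 measured in DCs, 9 were higher and 2 lower, with a median log2 ratio of 2.25. The shares over all genes were 30.2% and 41.8%, and with coding lengths under 300 bases 130 of 237 were higher. Cox7c had 50491 counts in treated DCs and 5890 in PBS DCs, a log2 ratio of 3.92 (3.88 to 3.96), and Cox6c had 49262 and 7841 counts, a log2 ratio of 3.47. Cox6b1, which bridges the monomers of the dimer, had the highest deposited FPKM of all members in both DC libraries, 11446 in treated and 2436 in PBS DCs. The genes called lower are both alternative isoforms, Cox4i2 and Cox6b2.

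Several subunits of complex IV and the c ring come as paralogues whose use differs between tissues. Cox4i2, an isoform linked to low oxygen, had 0 counts in treated DCs and 342 in PBS DCs. With the 0 set at 3 counts it was 64.6-fold lower, and the interval of its log2 ratio reached -5.71. The ubiquitous Cox4i1 had 16391 and 15364 counts, a log2 ratio of 0.91. Ndufa4l2, a hypoxia-induced relative of the complex IV subunit Ndufa4, had 0 and 138 counts, 26.1-fold lower with the 0 set at 3. Ndufa4 itself had 8624 and 2256, a log2 ratio of 2.75. In both pairs the isoform known from low oxygen was not detected in treated DCs. The same held for 942 of all 7857 genes with at least 100 counts in PBS DCs. Cox7a1, the form typical of heart and skeletal muscle, had 1749 counts in treated and 522 in PBS DCs, a log2 ratio of 2.56, and Cox7a2 had 41390 and 10687, a log2 ratio of 2.77. Cox7a2l, a supercomplex factor of the same family, was lower at -1.25. Cox6a2, the muscle form, had 0 counts in treated and 1 in PBS DCs. Cox6a1, Cox8a and Cox7b had log2 ratios of 0.84, 0.71 and 3.25. The 3 genes for the c ring encode the same mature protein, and each went its own way: Atp5g3 was higher at 1.88, Atp5g1 had 11762 and 18379 counts and a ratio of 0.18, and Atp5g2 was lower at -1.5.

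In ATP synthase the small accessory subunits of the membrane part were higher in treated DCs, and the c ring, stalk and head were mixed. In the F1 head, which holds the catalytic sites, Atp5d, Atp5c1 and Atp5b (delta, gamma and beta) were lower in treated DCs at -2.05, -1.16 and -1.08, and Atp5a1 (alpha) was not called at -0.83. Atp5e (epsilon), the smallest head subunit, had 33189 counts in treated and 5538 in PBS DCs, a log2 ratio of 3.40. The median of the head was -1.08, but 0.21 after the listed-length correction and -0.18 after the coding-length correction. The median of all genes was 0.23 and 0.25 after these corrections, against -0.36 without them. The direction of Atp5c1 was not stable to length either, with 0.21 after the listed-length correction and 0.35 after the coding-length correction. In the peripheral stalk, Atp5j, Atp5h and Atp5o were higher at 3.31, 2.10 and 2.03, and Atp5pb was lower at -1.25. All 5 small accessory subunits of the membrane part, several of which link ATP synthase dimers, were higher, where 30.2% of all measured genes were. Their median log2 ratio was 3.38. Atp5k (subunit e; chr5:108581110-108582314, minus strand, GRCm39) had 37876 counts in treated DCs and 1616 in PBS DCs, a log2 ratio of 5.37 (5.30 to 5.44). Atp5md (chr19:47071903-47079086, minus strand) had 94508 and 7543 counts, a log2 ratio of 4.47 (4.43 to 4.50). Atp5j2, Atp5mpl and Atp5l followed at 3.38, 3.17 and 2.65. The open reading frames of these small subunits are very short, and 3 that were higher in treated DCs and lower in treated T cells are printed to show it, from GENCODE release M21 transcripts, with the start and stop codons in capitals.
Atp5md: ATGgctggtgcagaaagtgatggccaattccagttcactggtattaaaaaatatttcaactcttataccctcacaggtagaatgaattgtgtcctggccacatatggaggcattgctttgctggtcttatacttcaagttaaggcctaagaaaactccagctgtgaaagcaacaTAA
Atp5k: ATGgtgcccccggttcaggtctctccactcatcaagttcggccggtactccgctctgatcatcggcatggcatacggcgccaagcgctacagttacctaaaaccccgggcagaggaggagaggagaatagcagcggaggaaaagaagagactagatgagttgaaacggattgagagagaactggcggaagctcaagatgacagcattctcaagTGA
Cox7c: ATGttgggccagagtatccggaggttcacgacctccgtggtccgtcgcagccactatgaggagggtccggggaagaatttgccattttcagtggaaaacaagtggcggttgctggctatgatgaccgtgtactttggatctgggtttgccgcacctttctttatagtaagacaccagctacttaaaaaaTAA

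Of the 8 complex I assembly factors named Ndufaf, 1 was higher, 3 lower and 4 neither in treated DCs. Over all measured genes 30.2% were higher and 41.8% lower. Ndufaf5, known in human cells to modify the Ndufs7 protein, had 0 counts in treated DCs and 178 in PBS DCs. With the 0 set at 3 counts it was 33.6-fold lower. Ndufaf7, another of these factors, had 175 and 1238 counts, a log2 ratio of -2.0, and Ndufaf4 was higher at 2.04. Ndufaf3 and Ndufaf8, the most abundant of them, were not called, at -0.76 and -0.34.

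All 12 measured mitochondrially encoded members were higher in treated DCs, where 30.2% of all measured genes were. Their median log2 ratio was 3.21. They took 1.2% of all counts in treated DCs (exact 95% interval 1.197 to 1.208) and 0.391% in PBS DCs (0.388 to 0.393). The cytochrome oxidase core subunit mt-Co1 had the most counts, 70653 in treated and 57348 in PBS DCs, and the smallest ratio, 1.12 (1.10 to 1.14). It held 41.8% of mitochondrially encoded counts in treated DCs and 61.7% in PBS DCs. The complex I subunits mt-Nd1, mt-Nd4, mt-Nd5 and mt-Nd2 had log2 ratios of 1.87, 2.02, 2.16 and 2.86, and the cytochrome b gene mt-Cytb had 2.37. mt-Nd6, the member on the opposite strand of the mitochondrial genome, had 4086 and 510 counts, a log2 ratio of 3.82, and whether the counting used strand is not stated.

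The 5 adjacent genes from mt-Co2 to mt-Nd3 each had fewer counts in both DC libraries than any of the 7 other measured members. Together they had 4056 counts in treated and 412 in PBS DCs, a log2 ratio of 4.12 (3.97 to 4.27), while the 7 others had 165007 and 92584, a log2 ratio of 1.65 (1.64 to 1.66). mt-Co2, mt-Co3 and mt-Atp6 had log2 ratios of 4.42, 4.21 and 3.56. mt-Nd4l, which follows mt-Nd3 and missed the count minimum, had 18 and 1 counts in treated and PBS DCs and 2 and 1 in treated and PBS T cells. mt-Nd3 had 86 counts in treated and 2 in PBS DCs, a log2 ratio of 6.25 (4.35 to 9.31). mt-Atp8 had 126 counts in treated and 0 in PBS DCs, at least 74.1-fold higher. In the mouse a nuclear copy nearly identical to a stretch of mitochondrial DNA that spans these genes is known, and how reads that match both were counted is not given, so these 5 values are uncertain. mt-Atp8 (MT:7766-7969, plus strand) also shares 43 bases with mt-Atp6, in capitals in its sequence from GENCODE M21.
mt-Atp8: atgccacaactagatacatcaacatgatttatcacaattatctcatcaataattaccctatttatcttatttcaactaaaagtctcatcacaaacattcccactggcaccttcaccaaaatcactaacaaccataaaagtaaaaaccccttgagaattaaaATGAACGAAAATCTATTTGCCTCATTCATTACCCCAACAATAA

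**Figure D3:**
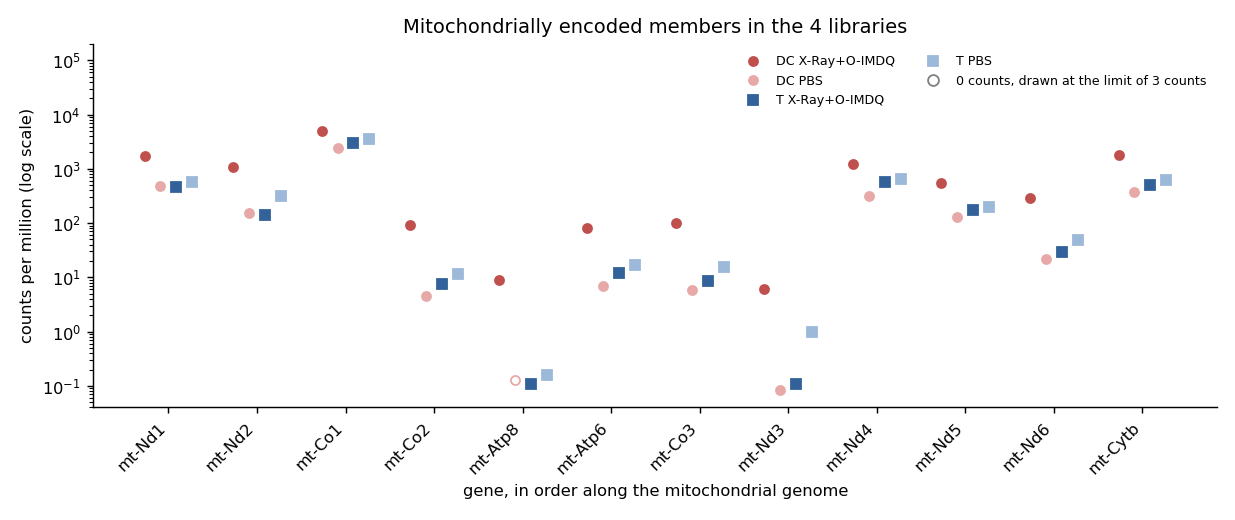
CPM (log axis) of the 12 mitochondrially encoded members in the 4 libraries, 1 point per library, in their order along the mitochondrial genome; an open symbol marks a count of 0 drawn at 3 counts. Treated DCs lie above PBS DCs for every gene, treated T cells lie below PBS T cells for every gene, and the block from mt-Co2 to mt-Nd3 is low in all libraries.

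In T cells the same members lay close to PBS and mostly below it. Of 91 nuclear members measured, 0 were called higher in treated T cells, where 18.3% of all 11058 measured genes were, and 15 were called lower, where 25.4% were. Their median log2 ratio was -0.56, against -0.07 over all genes. Nuclear members took 2.69% of counts in treated and 3.71% in PBS T cells. Of 10 mitochondrially encoded members measured, 0 were higher and 1 was lower, with a median of -0.44, and these genes took 0.484% of counts in treated and 0.602% in PBS T cells. The median of the mitochondrially encoded members was 0.02 after the listed-length correction, and the nuclear one was -0.24. Lower nuclear members were 7 with listed and 5 with coding length corrected, and the call of the mitochondrially encoded member was lost with listed length. With counts scaled to the upper quartile 23 nuclear members were lower, and after centring on the median of all genes 9 were.

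The T cell member with the largest difference was Cox7a1, with 12 counts in treated and 113 in PBS T cells, a log2 ratio of -3.25 (-4.24 to -2.39). Cox6a2 had 118 and 381 counts, a log2 ratio of -1.70. Both are the muscle forms of their subunits, and the ubiquitous Cox7a2 and Cox6a1 had -1.01, which was called, and -0.64, which was not. Ndufv1 had 925 counts in treated and 2375 in PBS T cells, a log2 ratio of -1.37, and was the single complex I core subunit called in T cells. The assembly factors Ndufaf8 and Ndufaf2 were lower at -1.45 and -1.26, and the complex II anchor Sdhc at -1.03. The remaining lower members were Ndufc1, Ndufa1, Ndufb1, Cox7c, Atp5k, Atp5md, Atp5j and Atp5e, between -1.22 and -1.02. mt-Nd2 had 2608 counts in treated and 5962 in PBS T cells, a log2 ratio of -1.21. Ndufaf5, Ndufa9 and Uqcrc1, at 0.97, 0.50 and 0.49, were not called.

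Coding length, the bases from start to stop codon in GENCODE M21, ordered the nuclear members in both cell types, in opposite directions. In DCs the 23 members under 300 bases had 19 higher and 2 lower, with a median log2 ratio of 2.77. Those of 300 to under 600 bases had a median of 1.52, those of 600 to under 1200 bases -1.66 and those of 1200 bases and over -1.66. All genes of the same 4 classes had medians of 1.43, -0.23, -1.18 and 0.02, so the members lay further apart than all genes across the classes. In T cells the members' medians ran -0.95, -0.55, -0.12 and -0.06, beside -0.62, -0.31, -0.03 and 0.04 over all genes. Over the members, Spearman's rho between coding length and log2 ratio was -0.71 in DCs (92 genes) and 0.69 in T cells (90 genes), beside 0.12 and 0.06 over all genes. These are across genes of the same libraries, which are not independent replicates. Classes of listed length were planned, and those of coding length were not. With the gene length listed in the deposited tables rho was -0.25 in DCs and 0.34 in T cells. The listed classes were under 600, 600 to under 1000, 1000 to under 2000, and 2000 bases and over. In that order the members' DC medians were 2.60, 1.45, 1.59 and -0.64, beside 2.59, 0.39, -1.06 and -0.30 over all genes. In T cells they were -0.98, -0.78, -0.52 and -0.32, beside -0.78, -0.54, -0.29 and -0.01. Over the 12 mitochondrially encoded members rho with coding length was -0.84 in DCs. These include the 5 genes from mt-Co2 to mt-Nd3, whose values are uncertain as given above.

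Role and coding length go together in this set, since all 7 complex I core subunits have 600 bases or more and 26 of the accessory subunits with a known coding length have fewer than 600. Both roles occur in 2 of the length classes. At 600 to under 1200 bases, the 4 core subunits had a median of -3.0 in DCs and the 2 accessory subunits -1.74. At 1200 bases and over, the 3 core subunits were lower with a median of -4.38 and the 1 accessory subunit, Ndufv3, was higher at 2.55. Of the nuclear members of 1200 bases and over, Ndufv3 alone was called higher in treated DCs. Coding length is that of 1 transcript per gene, and counts per gene do not tell transcripts apart. After a correction for coding length fitted over all genes, the complex I core had a median of -2.42 in DCs and the accessory subunits 1.72. The ATP synthase membrane accessory subunits had 2.52 after the same correction.

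Cytosolic ribosomal protein genes, another family of short abundant messages, moved along with the short members. With coding lengths under 300 bases, 11 of 11 were higher in treated DCs, with a median log2 ratio of 3.48, and 8 of 12 were lower in treated T cells, with a median of -1.08. All cytosolic ribosomal protein genes took 10.4% of counts in treated and 4.08% in PBS DCs, and 6.40% in treated and 9.32% in PBS T cells. Over all genes measured in DCs, 30.2% were higher and 41.8% lower. Mitochondrial ribosomal protein genes, which are nuclear and serve the same organelle, had 15 higher and 31 lower of 77 in DCs. Their median was -0.32. Their medians in DCs were also lower in the longer class, at 0.40 for 300 to under 600 bases and -1.24 for 600 to under 1200 bases. The part of RNA size or quality in these values was not tested.

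**Figure D4:**
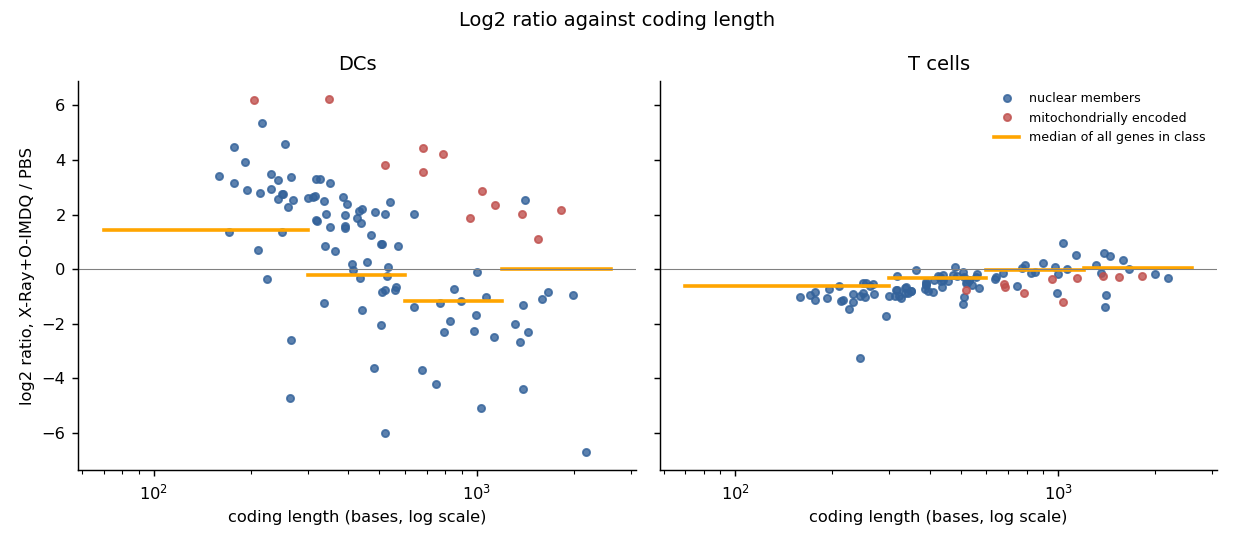
Log2 ratio, X-Ray+O-IMDQ over PBS, of each measured member against its coding length (log axis) in DCs (left) and T cells (right), with orange lines at the median of all genes in each of 4 length classes. Nuclear members slope down in DCs, from a median of 2.77 under 300 bases to -1.66 at 1200 bases and over, and slope up in T cells, from -0.95 to -0.06.

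Set side by side, the ratios of the 2 cell types, which share no library, ran against each other. Over the 90 nuclear members measured in both, Spearman's rho between the DC and the T cell log2 ratio was -0.65, beside -0.02 over 9388 genes. Of these 90, 55 were above 0 in DCs and below 0 in T cells, 22 were below 0 in both, 13 were below 0 in DCs and above 0 in T cells, and 0 were above 0 in both. Over all genes 20.6% were above 0 in both and 24.1% were above 0 in DCs alone. Called higher in treated DCs and lower in treated T cells were 10 nuclear members, 7.39% of all genes having this pair of calls. The opposite pair was found for 0 members and for 6.74% of all genes. Ndufv1 was the member called lower in both. Of the 11 members called in opposite directions, mt-Nd2 included, 3 kept the T cell call with listed length corrected, and 2 of the 10 with a coding length kept it with coding length corrected.

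**Figure D5:**
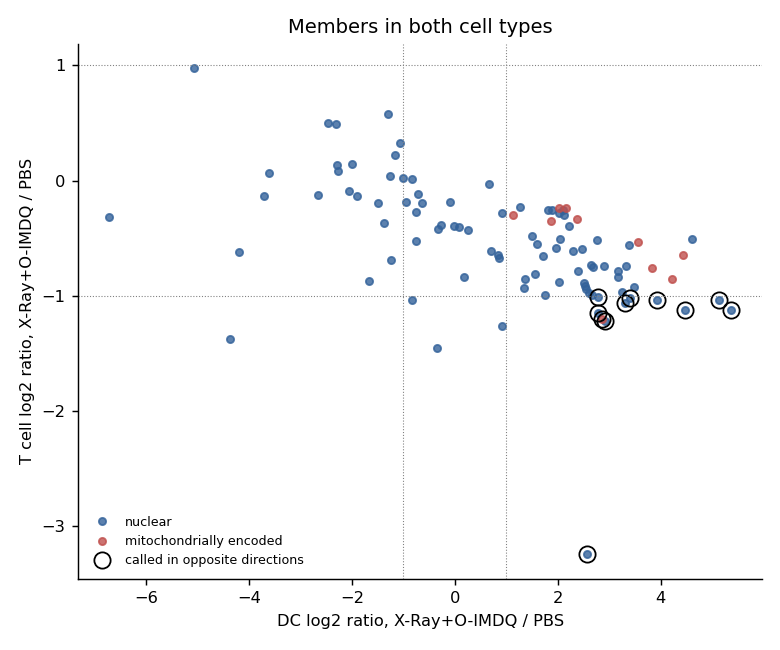
Log2 ratio, X-Ray+O-IMDQ over PBS, in DCs (horizontal axis) and T cells (vertical axis) for each member measured in both, with dotted lines at 2-fold and circles around the 11 members called in opposite directions. The points run from upper left to lower right with no point above 0 on both axes, and Cox7a1 is the circled point at 2.56 and -3.25.

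Within a library, the order of members by level differed most in treated DCs. Spearman's rho of CPM over the 94 nuclear members was 0.93 between treated and PBS T cells and 0.89 between PBS DCs and PBS T cells. It was 0.52 between treated and PBS DCs and 0.50 between treated DCs and treated T cells. Over all 21959 genes these values were 0.91, 0.85, 0.81 and 0.75 in that order, so treated DCs differed most there too. By deposited FPKM, a level per length, Cox6b1, Ndufa3 and Ndufa1 led in treated DCs with 11446, 10515 and 5894, and mt-Co1 had 3253. In PBS DCs mt-Co1 came second with 1560 after Cox6b1. In T cells mt-Co1, Cox8a and Cox6b1 were the first 3 in both libraries, with mt-Co1 at 1906 in treated and 2305 in PBS T cells. The orders rest on 1 library each.

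Promoter sequences were compared because respiratory chain genes are known to share binding motifs of NRF1, of ETS factors such as GABP, and of YY1. RefSeq windows (GRCm38.p6, 250 bases before to 50 after the start) were matched by symbol or unique synonym for 76 of 94 nuclear members, in 81 windows. The motifs were searched on both strands as GCGCANGCG for NRF1, CCGGAAGT for ETS and AAGATGGCG for YY1, and none of these contains another. The NRF1 letters were in 29.6% of members' windows and 6.25% of all 32851 windows, the ETS letters in 6.17% and 3.89%, and the YY1 letters in 9.88% and 1.4%. Members called higher in treated DCs had the NRF1 letters in 15 of 42 windows, and those called lower in 5 of 22. Any of the 3 was found in 45.2% of the windows of higher members and 36.4% of the windows of lower members, and this difference was not tested. The promoters of 2 high ATP synthase subunits, at chr5:108434350-108434649 (Atp5k, minus strand) and chr19:47090598-47090897 (Atp5md, minus strand), and of 2 low complex I core subunits, at chr17:66101510-66101809 (Ndufv2, minus strand) and chr10:80249199-80249498 (Ndufs7, plus strand), are printed in GRCm38.p6 with motif letters in capitals. 1 of each pair holds a motif, NRF1 in Atp5k, with overlapping matches on both strands, and YY1 in Ndufs7, and the letters searched are not in the other window of each pair.
Atp5k: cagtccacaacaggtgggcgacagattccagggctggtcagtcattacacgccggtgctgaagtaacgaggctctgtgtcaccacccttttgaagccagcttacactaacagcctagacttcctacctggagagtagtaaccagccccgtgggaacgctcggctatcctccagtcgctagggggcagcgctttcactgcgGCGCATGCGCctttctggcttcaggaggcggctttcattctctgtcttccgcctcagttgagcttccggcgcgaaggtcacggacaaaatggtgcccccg
Atp5md: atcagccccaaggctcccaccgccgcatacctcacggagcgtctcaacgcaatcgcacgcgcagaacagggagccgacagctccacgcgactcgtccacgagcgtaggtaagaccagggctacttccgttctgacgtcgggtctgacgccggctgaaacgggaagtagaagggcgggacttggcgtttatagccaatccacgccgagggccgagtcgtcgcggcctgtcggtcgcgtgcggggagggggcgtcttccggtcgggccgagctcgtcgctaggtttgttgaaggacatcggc
Ndufv2: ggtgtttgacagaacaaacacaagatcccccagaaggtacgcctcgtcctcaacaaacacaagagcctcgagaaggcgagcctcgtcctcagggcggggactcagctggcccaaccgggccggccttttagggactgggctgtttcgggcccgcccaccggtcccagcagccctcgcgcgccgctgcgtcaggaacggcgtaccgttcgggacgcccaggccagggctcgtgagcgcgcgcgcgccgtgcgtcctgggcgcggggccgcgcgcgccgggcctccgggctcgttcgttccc
Ndufs7: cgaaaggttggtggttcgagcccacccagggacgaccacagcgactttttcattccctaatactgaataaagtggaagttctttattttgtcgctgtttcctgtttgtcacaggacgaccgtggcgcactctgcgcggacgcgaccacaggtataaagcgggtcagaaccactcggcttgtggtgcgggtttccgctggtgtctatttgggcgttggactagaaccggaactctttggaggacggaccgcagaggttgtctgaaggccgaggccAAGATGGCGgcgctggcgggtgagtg

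Other genes of the organelle were described by lists. Beside the list counts below, 30.2% of all measured genes were called higher and 41.8% lower in treated DCs. In treated T cells these shares were 18.3% and 25.4%. The lists were not tested against these shares. Of 25 measured genes of mitochondrial DNA maintenance and expression, 9 were higher in treated DCs and 10 lower, and the median log2 ratio was 0.41. Ssbp1, which coats single-stranded mitochondrial DNA, had 4138 counts in treated and 3398 in PBS DCs, a log2 ratio of 1.10, and Hsd17b10, part of mitochondrial RNase P, had 649 and 4502, a log2 ratio of -1.98. Tfam, the factor that packages and transcribes mitochondrial DNA, had 316 and 10 counts, a log2 ratio of 5.80, and is named after its value was seen. The highest and lowest were Polg, the DNA polymerase, at 7.09 from 77 and 1 counts, and Tefm, an elongation factor, at -7.70 from 1 and 368 counts. In T cells 3 of 26 were higher and 11 lower (median -0.82), and Ssbp1 had -0.33. Mterf4 had 1 count in treated and 306 in PBS T cells, a log2 ratio of -8.27, and Prorp 386 and 9 counts, a log2 ratio of 5.41.

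Assembly factors outside the symbol rule had 10 higher and 20 lower of 41 in DCs, with a median of -0.95. Higd1a and Coa3, the most abundant, had log2 ratios of 2.36 and -0.95. Cox10, an enzyme on the way to the haem of complex IV, had 1 count in treated and 403 in PBS DCs, a log2 ratio of -7.84, and Tmem186 had 230 and 1, a log2 ratio of 8.66. In T cells 4 of 42 were higher and 9 lower (median -0.54). TCA cycle and pyruvate entry genes had 2 higher and 10 lower of 19 in DCs, with a median of -1.11, and 3 higher and 2 lower of 20 in T cells, with a median of 0.32. Mdh2, malate dehydrogenase, had 1609 counts in treated and 18262 in PBS DCs, a log2 ratio of -2.69. Pdhx, a pyruvate dehydrogenase component, had 0 and 975 counts in DCs, 184-fold lower with the 0 set at 3 counts. Dlst was the highest at 2.15.

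Carriers of the inner and outer membrane had 1 higher and 6 lower of 12 in DCs, with a median of -0.67, and 2 higher and 0 lower of 12 in T cells. Slc25a5, an ADP/ATP carrier, had 2731 counts in treated and 49518 in PBS DCs, a log2 ratio of -3.36, and 36646 and 31772 in T cells, a log2 ratio of 0.19. Import and inner membrane genes had 4 higher and 12 lower of 24 in DCs, with a median of -0.96, and 2 higher and 1 lower of 24 in T cells. Tomm7, of the outer membrane import pore, was the highest in DCs at 3.47, and Phb, a prohibitin, the lowest at -4.86. Among biogenesis regulators 3 were higher and 2 lower of 8 in DCs, with Nrf1 lower at -1.75 and Gabpa higher at 1.21, and 2 were higher and 0 lower of 9 in T cells. Ppargc1a had 0 counts in all 4 libraries.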

How the data were processed

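Gene expression was measured by RNA sequencing in 1 library for each of 4 groups. The build was GRCm39, and the tools listed were RSEM 1.2.12, HISAT2 2.0.4, R 3.3.1 and DESeq2 1.24.0, per the submitters' processing notes, which do not tie them to steps. The deposited tables hold raw read counts per gene in whole numbers. The authors also deposited FPKM, and each value could be recomputed from the count, the length in the table and the library total to a relative error of 2.04e-07. Columns were assigned through the read file named in each sample's description. For the PBS samples the labels conflict: the titles carry replicate number 2, the descriptions name a read file numbered 1. The description was followed, so every ratio rests on that choice. Another 2 PBS libraries, numbered 2 in the tables, with 4 columns of values, were matched to no sample and not used.

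For each cell type, TMM factors (edgeR 4.0.16, R 4.3.3) scaled the counts. Every log2 ratio, treated over PBS, has an exact conditional binomial (Clopper-Pearson) 95% interval, with a count of 0 set at 3. The 51 rows without a symbol were left out of the calls. Coding lengths were taken from GENCODE M21 by identifier and cover 98.9% of nuclear members. Many members have processed pseudogenes, and how shared reads were counted is not stated. Whether libraries come from separate animals is not stated.

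The members and lists were chosen with earlier results of these data known. Beside members of the described roles, the text names every mitochondrially encoded member, the 2 most abundant members of each complex, the 8 highest and 8 lowest in each comparison with at least 100 counts, paralogues, members at 0 in 1 library, members with opposite calls, and in each other list the most abundant and the most extreme; others are named by role. Values of 1 member are not reported here. Alternatives were other scalings (total counts, DESeq2 1.42.0 size factors, upper quartile, TMM without mitochondrial and ribosomal genes), FPKM, other count minimums and folds, and length corrections. The ratio and call were tested on simulated data.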

Additional observations from a re-analysis of the deposited data

Results flagged for a closer look

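The members called higher in treated DCs and lower in treated T cells move in opposite ways in the 2 cell types. The difference was not tested, since each cell type has 1 library per group. In DCs and in T cells, the log2 ratios were 5.37 and -1.13 for Atp5k, 5.14 and -1.04 for Ndufb1, and 4.47 and -1.13 for Atp5md. They were 3.92 and -1.04 for Cox7c, 3.40 and -1.02 for Atp5e, and 3.31 and -1.07 for Atp5j. They were 2.92 and -1.22 for Ndufc1, 2.77 and -1.15 for Ndufa1, and 2.77 and -1.01 for Cox7a2. Cox7a1, the muscle isoform, had 2.56 and -3.25, and mt-Nd2, the one mitochondrially encoded gene of this kind, had 2.86 and -1.21. In T cells all of these but Cox7a1 lay between -1.22 and -1.01. Of these 11, 3 kept the T cell call with listed length corrected, and 2 of the 10 with a coding length kept it with coding length corrected; centring on the median of all genes took the call from 5.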

How the results depend on the processing

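No paired analysis was possible because each group has 1 library, so none was left out. Counts are members or genes called and medians are log2 ratios. In DCs, 46 higher nuclear members and 26 lower became 47 and 13 with the listed-length correction, and lower members were 16 both with the coding-length correction and with a 4-fold threshold. The nuclear DC median of 0.91 was 0.85 with total-count CPM or FPKM, and 1.08 with at least 100 counts. It was 1.35 with at least 20 counts in both libraries, 1.06 with listed and 1.32 with coding length corrected. It was 1.46 for structural subunits and 1.27 after centring. The DC median of all genes moved too, from -0.36 to 0.23 with listed and 0.25 with coding length corrected. With total-count CPM or FPKM it was -0.42, with at least 100 counts -0.22 and with 20 in both libraries 0.20. The member medians alone thus do not give the gap to all genes. The mitochondrially encoded DC median of 3.21 was 2.86 with at least 100 counts, 2.61 with 20 in both, 2.96 with listed and 4.41 with coding length corrected, and 3.57 after centring. In T cells, 0 higher nuclear members became 1 with total-count CPM, FPKM, no filter, a 1.5-fold threshold, listed length corrected or centring. The 15 lower members became 23 with upper-quartile scaling, 44 at 1.5-fold, 1 at 4-fold, 7 with listed and 5 with coding length corrected, and 9 after centring. The nuclear T cell median of -0.56 was -0.65 with upper-quartile scaling, -0.24 with listed and -0.20 with coding length corrected, and -0.49 after centring. The mitochondrially encoded T cell median of -0.44 was -0.54 with upper-quartile scaling and with no filter, 0.019 with listed length corrected and -0.37 after centring. The 1 lower mitochondrially encoded gene became 2 with no filter, 4 at 1.5-fold and 0 at 4-fold or with listed length corrected.

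Over all genes, the DC counts of 3112 higher and 4317 lower were 1922 higher at 4-fold and 1825 lower with 20 counts in both libraries. The T cell counts of 2025 and 2805 were 1003 and 1774 at 4-fold, and 1378 lower with 20 in both. With 20 counts in both libraries the DC split was 2298 higher and 1825 lower, with listed length corrected 3924 and 3569, and with coding length corrected 3937 and 3512. Without ribosomal protein genes in the total, mitochondrially encoded shares were 1.34% in treated and 0.407% in PBS DCs, and 0.517% in treated and 0.664% in PBS T cells.

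Signs turned in DCs with listed length corrected for complex II (0.03), the F1 head (0.21) and Atp5c1 (0.21). With coding length corrected they turned for complex III (-0.42), Atp5c1 (0.35) and Uqcr11 (-0.55). The cause was not tested. Neither correction centred the ratios. The DC median of all genes was 0.23 with listed and 0.25 with coding length corrected, against -0.36 without. A sign above 0 alone thus does not place a member above the median of all genes. Of the other single-member values under the alternatives, 1403 kept their side of the threshold, 62 lost the call and 32 gained one. Direction was compared only where a member was called, so an uncalled member among the 1403 may have changed sign. Part of the 1403 was fixed in advance. Alternatives that changed only the count minimum or the set of members left each ratio and call as it was. FPKM repeated total-count CPM. Coding-length correction and centring were chosen after seeing the data. Counts bound the precision, and the spread between animals is unknown.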
